A study of Homo sapiens with 6 samples.

Results

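snoRNA host transcripts are spliced RNAs whose introns carry small nucleolar RNAs (snoRNAs). The members were taken by name: every gene of the deposited table whose symbol is SNHG followed by a number, together with GAS5, ZFAS1 and EPB41L4A-AS1, which gave 31 of 60691 genes. The rule itself uses no measured value. RNA had been sequenced from SW1353, an established line of human chondrosarcoma, a cartilage-forming tumour of bone. All cells were held in 3% oxygen for 48 h after seeding and had been infected with a lentivirus expressing a short hairpin RNA (shRNA). The 3 control libraries carried shfirefly, a hairpin against an insect luciferase, and the 3 test libraries carried shSIRT1, a hairpin labelled for the deacetylase gene SIRT1. One text of the labels names EPAS1 as the second hairpin's target instead. The 3 libraries of a group are biological replicates per the design text, and the model is 1 cell line and 1 hairpin per target, with no untransduced cells among the samples used.

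A snoRNA host gene is transcribed and spliced, and the snoRNA is trimmed out of the debranched intron. Box C/D snoRNAs (SNORD genes) guide ribose methylation and box H/ACA snoRNAs (SNORA genes) guide pseudouridylation of ribosomal RNA, while SCARNA genes encode the related RNAs of Cajal bodies. The spliced exons mostly hold no long reading frame. Many of these exon RNAs are bound by ribosomes and removed by nonsense-mediated decay, and many begin with a terminal oligopyrimidine (TOP) tract, a run of C and T at the start that they share with ribosomal protein mRNAs. A poly(A)-selected library as used here measures the spliced exon RNA, which is not a measure of the snoRNA. In bulk RNA, fewer cells with a transcript and less transcript per cell cannot be told apart.

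RefSeq places 147 snoRNA genes within the bounds of 29 of the 31 members. SNHG14, an imprinted transcript on chromosome 15, holds 83 of them, all SNORD genes. GAS5 holds 11 and SNHG1 holds 8. Only SNORD genes lie in 12 members, only SNORA genes in 10 and only SCARNA genes in 4, and the 3 mixed hosts are GAS5, SNHG12 and SNHG25. SNHG27 and SNHG28 hold none in that catalogue. A snoRNA each of SNHG18 and SNHG3, hosts whose levels moved far in opposite directions, and of SNHG5, an abundant host, show what the introns encode. In the lines below, capitals mark the C box (TGATGA) and D box (CTGA) of a SNORD RNA or the terminal ACA of a SNORA RNA, searched on the RNA's own strand. SNORD123 (chr5:9548836-9548905, forward strand) lies in SNHG18 and SNORD50B (chr6:85677589-85677658, reverse strand) in SNHG5. SNORA73B (chr1:28508559-28508762, forward strand) lies in SNHG3. All positions are on GRCh38, with sequences from GENCODE 29.
SNORD123: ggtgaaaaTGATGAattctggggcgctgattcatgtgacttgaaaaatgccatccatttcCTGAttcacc
SNORD50B: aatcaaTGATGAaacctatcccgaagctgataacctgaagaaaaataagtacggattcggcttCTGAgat
SNORA73B: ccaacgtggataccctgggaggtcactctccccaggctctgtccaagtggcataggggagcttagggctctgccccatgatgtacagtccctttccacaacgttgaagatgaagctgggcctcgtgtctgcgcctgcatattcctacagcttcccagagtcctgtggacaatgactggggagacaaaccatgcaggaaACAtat

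The annotated starts of several hosts carry the pyrimidine tract of TOP RNAs. RefSeq gives a start for 27 members. Of these starts, 7 begin with C and run on for at least 5 pyrimidines, or 25.9%, against 4.07% of all 35116 promoter entries and 47 of 78 entries of listed ribosomal protein genes. Those 7 are SNHG4, SNHG5, SNHG12, SNHG18, SNHG19, SNHG32 and ZFAS1. In GENCODE 29, which lists alternative starts, 37 of 269 transcripts of the tested members (13.8%) began in the same way, against 2.61% of the transcripts of all tested genes and 20.4% of those of ribosomal protein genes. GAS5, whose single RefSeq start has no such tract, has it in 6 of 29 GENCODE transcripts. The lines below give 10 bases before and 30 bases from the RefSeq start (GRCh38.p14), with the unbroken pyrimidine run at the start in capitals. SNHG12 is shown as a host that rose, SNHG5 and SNHG18 as hosts that fell, and SNHG19 and ZFAS1 as hosts that did not pass the test. SNHG1, a host that rose, is shown because its RefSeq start has a run of only 3.
SNHG12: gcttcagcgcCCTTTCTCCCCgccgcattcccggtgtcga
SNHG5: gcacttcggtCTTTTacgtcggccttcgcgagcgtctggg
SNHG18: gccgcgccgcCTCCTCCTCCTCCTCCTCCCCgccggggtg
SNHG19: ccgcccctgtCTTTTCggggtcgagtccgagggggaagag
ZFAS1: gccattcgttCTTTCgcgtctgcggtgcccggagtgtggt
SNHG1: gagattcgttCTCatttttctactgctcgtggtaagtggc
Their positions are chr1:28581844-28581883 (reverse strand), chr6:85678704-85678743 (reverse strand), chr5:9546190-9546229 (forward strand), chr16:2155329-2155368 (reverse strand), chr20:49278632-49278671 (forward strand) and chr11:62855856-62855895 (reverse strand). Members that rose and members that fell did not differ in the number of such starts: 2 of 6 in each had one. The motif CACGTG, searched on both strands over 250 bases before and 50 after the start, occurred in 2 of the 27 windows (7.41%; 7.26% of all windows), those of SNHG7 and SNHG30. The shorter ACGTG, which is part of CACGTG, occurred in 5 (18.5%; 21.4% of all windows).

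Total counts were 24993064 to 32044191 per library. SIRT1 mRNA had 13.6 ± 0.953 CPM in shSIRT1 and 24.9 ± 0.984 in shfirefly, and EPAS1 had 233 ± 10.5 and 456 ± 40.8 (SD, n = 3), where CPM is counts scaled to a library of fixed size by TMM factors. Both fell (log2 fold change -0.88 and -0.97, adjusted p = 2.3e-09 and 5.8e-07, quasi-likelihood test of edgeR, adjusted by Benjamini-Hochberg over 16591 genes). Of those genes 52.8% changed, 26.8% upwards and 26% downwards. With library totals alone in place of TMM factors, 6225 rose and 3021 fell, beside 4449 and 4311, and the median of all genes moved to 0.13. Summed CPM of 8 mesenchymal markers was 33413 to 36803 in shfirefly and 20909.8 to 21969 in shSIRT1. FN1 alone averaged 19857 and 9735 CPM of these sums. Of the 7 tested mesenchymal markers 5 fell, 1 rose (PRRX1, log2 change of 1.59) and 1 did not pass (median -0.40). PRRX1 averaged only 0.368 CPM in shfirefly and 1.12 CPM in shSIRT1. The 14 chondrocyte markers summed to 56.3 to 63 and 64.9 to 66.2 CPM, of which SOX9 made up 43.7 and 53.1 on average, with COL9A1 at 0 counts and COL2A1 at a mean of 0.034 and 0.332 CPM. Of the 6 tested chondrocyte markers 3 rose, 2 fell (log2 change of -0.91 for HAPLN1 and -1.16 for ACAN) and 1 did not pass (median -0.05). ACAN averaged only 1.51 CPM in shfirefly and 0.679 CPM in shSIRT1. The 12 markers of other cell types summed to no more than 2 CPM in any library. Marker levels moved with the hairpin, and their part in the results below was not tested.

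The 31 members spanned a wide range of levels. No read was counted for SNHG27 and SNHG28, which allows at most 0.0968 to 0.115 CPM per library (3 counts, counting error only). All exon bases of SNHG28 are shared with another annotated gene on the same strand. A further 6 had reads but too few to be tested, and 23 were tested. SNHG29 was the most abundant member, at 365 ± 20.4 CPM in shfirefly, and made up 35 to 37.7% of the summed CPM of all members in that group. Per kilobase of exon it also led, at 97.1 CPM per kb in shfirefly, followed by SNHG5 at 34.1, SNHG6 at 31.4, GAS5 at 29.97 and SNHG18 at 17.9. SNHG14 had the third highest mean CPM in shfirefly but only 2.24 CPM per kb, since its exons cover 43324 bases. Summed over all members the level was 999 ± 18.5 CPM in shfirefly and 910.1 ± 16.7 CPM in shSIRT1 (SD, n = 3), and without SNHG29 it was 633 ± 4.55 and 615 ± 12.8 CPM. Most of the group difference in the sum was that of SNHG29.

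**Figure D1:**
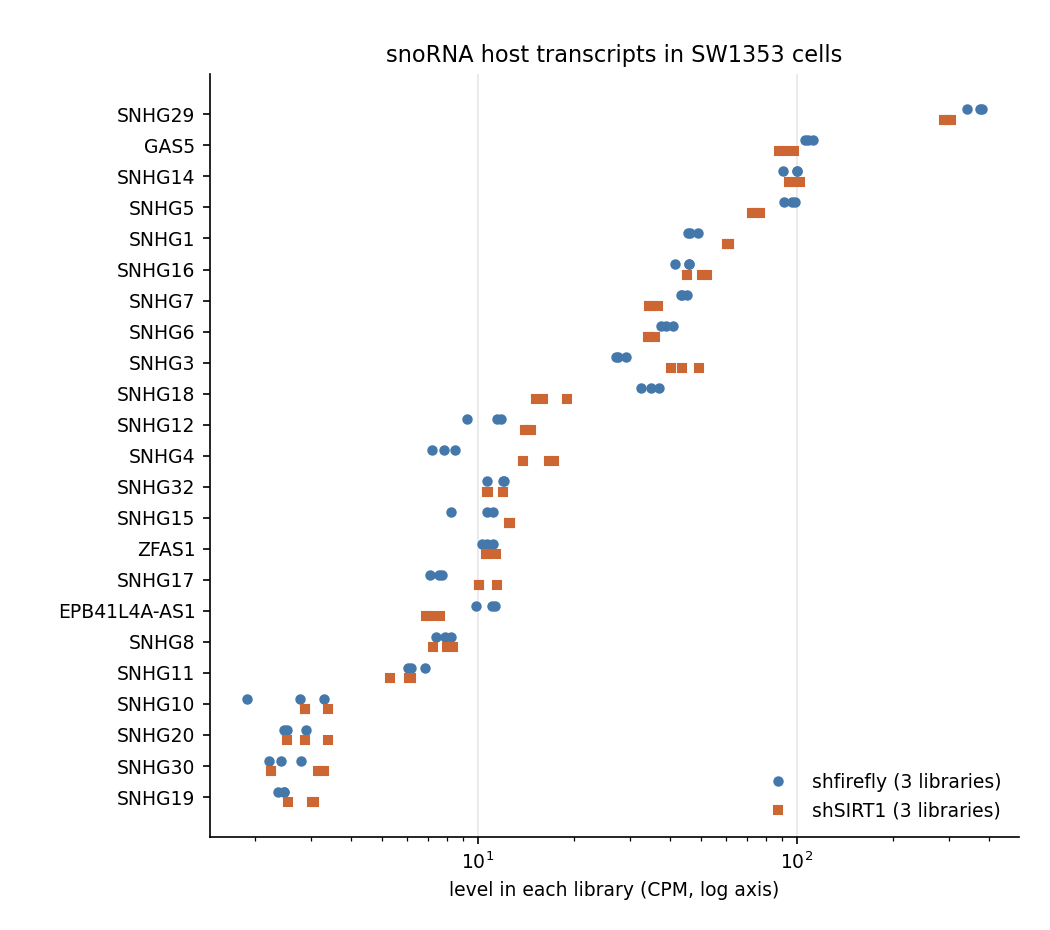
Level of the 23 tested host transcripts in each library (CPM on a log axis; circles, 3 shfirefly libraries; squares, 3 shSIRT1 libraries). SNHG29 stands far above the other members, and the groups separate to the left for SNHG18 and EPB41L4A-AS1 and to the right for SNHG4 and SNHG3.

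The host transcripts moved in both directions with the hairpin. Of the 23 tested, 7 rose, 7 fell and 9 did not pass, so 60.9% changed against 52.8% of all genes tested. Their median log2 fold change was 0.02, against 0.00 for all genes. For 14 of the 23 the shSIRT1 and shfirefly CPM values did not overlap, where 59.7% of all tested genes had separate ranges. Both shares lie near those of all genes. Among the 15 members averaging at least 10 CPM, 6 rose and 6 fell (80%), beside 67.3% of genes of that level. Members that passed the test with at least a 2-fold change were SNHG4 and SNHG18, where 6.45% of all genes did. By cargo, the 10 hosts of SNORA genes alone included 4 that rose, 2 that fell, 2 that did not pass and 2 not tested. The 12 hosts of SNORD genes alone included 2 that rose, 4 that fell, 5 that did not pass and 1 not tested. The difference between these classes was not tested.

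**Figure D2:**
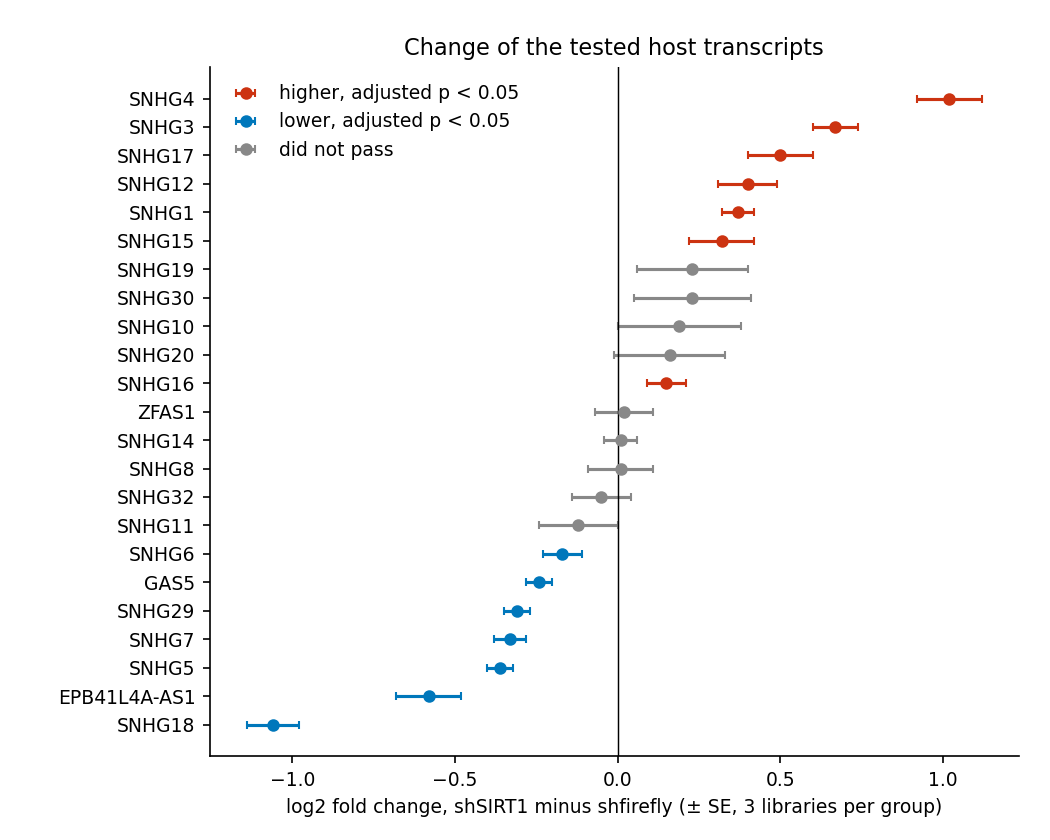
Log2 fold change of each tested host transcript, shSIRT1 minus shfirefly, with its standard error (3 libraries per group; colours mark the edgeR call). SNHG4 (1.02) and SNHG18 (-1.06) lie at the ends, and 7 members pass on each side.

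SNHG4, a host of 2 SNORA genes on chromosome 5 (139274102 to 139284899, forward strand), had the largest rise. It stood at 7.17, 7.84 and 8.52 CPM in the shfirefly libraries and at 13.9, 17.3 and 16.7 in the shSIRT1 libraries. Every shSIRT1 library lay above every shfirefly library, a 2.03-fold higher level (log2 change of 1.02 ± 0.10 SE, adjusted p = 2.1e-08). SNHG4 lies at the start of MATR3, which encodes an RNA-binding protein of the nuclear matrix, and RefSeq gives both genes the same start. Exons of MATR3 cover 14% of its exon bases. MATR3 is split over 2 rows of the table, and these held 233 and 4 counts over all 6 libraries. The larger row averaged 1.08 CPM in shfirefly and 1.56 CPM in shSIRT1. How reads common to the models were assigned is not given in the sources used here, so the level and the change of SNHG4 are uncertain.

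SNHG3 hosts SNORA73A and SNORA73B, which act in cleavage of the ribosomal RNA precursor. Its levels were 27.6, 27.2 and 29.2 CPM in shfirefly and 40.4, 49.3 and 43.7 CPM in shSIRT1. The groups were well apart, with a 1.59-fold higher level in shSIRT1 (log2 change of 0.67 ± 0.07 SE, adjusted p = 5.2e-08). SNHG3 lies inside RCC1, the gene for the exchange factor of the Ran GTPase, on the same strand, and 5.92% of its exon bases are shared. RCC1 rose too, from 65 ± 1.31 to 82.8 ± 2.08 CPM (SD, n = 3; log2 change, with SE, of 0.35 ± 0.04, adjusted p of 7.6e-07).

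SNHG17, a host of 4 SNORA71 genes on chromosome 20, had 7.07, 7.58 and 7.74 CPM in shfirefly and 10.1, 10.1 and 11.5 in shSIRT1. All 3 shSIRT1 values were higher (log2 change of 0.50 ± 0.10 SE, adjusted p = 0.00021). SNHG11, on the other strand of chromosome 20, carries SNORA71E and SNORA60. It had 6.35 ± 0.423 and 5.86 ± 0.474 CPM (SD, n = 3) and did not pass (log2 change of -0.12 ± 0.12 SE, adjusted p = 0.42). SNHG12, a mixed host of SNORD99 and 3 SNORA genes, had 11.8, 9.29 and 11.5 CPM in shfirefly and 14.1, 14.7 and 14.3 CPM in shSIRT1. Its shSIRT1 values were close together and all higher (1.32-fold, log2 change of 0.40 ± 0.09 SE, adjusted p = 0.0011). SNHG15, the host of SNORA9, went from 10.7, 8.25 and 11.2 CPM to 12.5, 12.6 and 12.6 CPM. The rise (log2 change of 0.32 ± 0.10 SE, adjusted p = 0.011) rested on the low shfirefly replicate 2, without which it was 0.20 (adjusted p = 0.087). That library was also the lowest of its group for SNHG1, SNHG3, SNHG7, SNHG10, SNHG11, SNHG12, SNHG14, SNHG19, SNHG30 and ZFAS1. It was the highest for SNHG5, SNHG6, SNHG8, SNHG18, SNHG29 and SNHG32. Without it 6 members were called higher and 6 lower.

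Among the SNORD hosts, SNHG1 and SNHG16 were called higher. SNHG1 carries SNORD22 and SNORD25 to SNORD31 on chromosome 11 (62851988 to 62855914, reverse strand), and no annotated gene overlaps it. It measured 49, 45.7 and 46.3 CPM in shfirefly and 61.2, 61.1 and 60.3 CPM in shSIRT1. The groups did not overlap, and the shSIRT1 libraries differed by less than 1 CPM (1.29-fold higher, log2 change of 0.37 ± 0.05 SE, adjusted p = 1.1e-06). SNHG16, the host of SNORD1A, SNORD1B and SNORD1C, had 41.5, 45.8 and 45.9 CPM in shfirefly and 45.3, 52.3 and 50.3 CPM in shSIRT1. Its ranges overlapped, and the call was marginal (log2 change of 0.15 ± 0.06 SE, adjusted p = 0.038). DESeq2 did not make it (adjusted p = 0.094), nor did edgeR with upper-quartile factors (0.16), without robust estimation (0.057), with the offset for GC content and length (0.12) or with that offset and a replicate block (0.059). It was also lost without shfirefly replicate 1 (0.25), shSIRT1 replicate 2 (0.21) or shSIRT1 replicate 3 (0.11). Exons on the other strand cover 30.6% of the exon bases of SNHG16.

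SNHG18 had the largest fall of the family. This host of SNORD123 on chromosome 5 (9546200 to 9550609, forward strand) stood at 35, 37.1 and 32.6 CPM in shfirefly and at 19, 15.2 and 16 CPM in shSIRT1. Every shSIRT1 library was lower by a wide margin, a 2.08-fold lower level (log2 change of -1.06 ± 0.08 SE, adjusted p = 7.8e-10). No annotated gene overlaps SNHG18. EPB41L4A-AS1, the host of SNORA13, fell next most, from 11.3, 11.1 and 9.9 CPM to 7.11, 7.6 and 6.88 CPM. The groups were separate (1.49-fold lower, log2 change of -0.58 ± 0.10 SE, adjusted p = 4.2e-05). Its opposite-strand neighbour EPB41L4A, a gene for a membrane-skeleton protein, shares 49.6% of its exon bases but had only 11 counts in all 6 libraries.

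SNHG5, SNHG29 and GAS5, which are among the most abundant members, fell by smaller steps. SNHG5, the host of SNORD50A and SNORD50B on chromosome 6, had 96.9, 98.8 and 91.1 CPM in shfirefly and 72.5, 74.7 and 76.6 CPM in shSIRT1. No library broke the order (1.28-fold lower, log2 change of -0.36 ± 0.04 SE, adjusted p = 6.7e-07). SNHG29, annotated in GENCODE 29 as LRRC75A-AS1 on chromosome 17, carries SNORD49A, SNORD49B and SNORD65. Its levels of 374, 379.6 and 342 CPM in shfirefly were all above the 289, 293 and 303 CPM in shSIRT1 (1.24-fold lower, log2 change of -0.31 ± 0.04 SE, adjusted p = 1.5e-06). GAS5, named for its accumulation in growth-arrested cells, hosts 10 SNORD genes and SNORA103. It had 106, 108 and 112 CPM in shfirefly and 91.5, 97.7 and 87.9 CPM in shSIRT1. The fall was small but complete over the libraries (1.18-fold lower, log2 change of -0.24 ± 0.04 SE, adjusted p = 0.00012). GAS5 fell by 0.12 with scaling by library totals alone and by 0.32 with an offset for the GC content and length of transcripts, and it passed under both.

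SNHG7 and SNHG6 completed the set that fell. SNHG7, the host of SNORA17A and SNORA17B on chromosome 9, went from 45.4, 43.3 and 43.7 CPM to 34.7, 36.6 and 34.3 CPM. Its groups were separate (1.25-fold lower, log2 change of -0.33 ± 0.05 SE, adjusted p = 2.2e-05). SNHG6, the host of SNORD87, had 39, 40.8 and 37.6 CPM in shfirefly and 34.5, 34.1 and 35.9 CPM in shSIRT1, which was 1.12-fold lower (log2 change of -0.17 ± 0.06 SE, adjusted p = 0.014). That call was lost with library totals alone (-0.05, adjusted p = 0.48), without shfirefly replicate 2 (adjusted p = 0.076) and without shSIRT1 replicate 2 (adjusted p = 0.055). Opposite-strand exons cover 25.2% of the exon bases of SNHG7 and 29.3% of those of SNHG6, but the neighbours there, DIPK1B and MCMDC2, had 136 and 142 counts over all libraries.

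The 9 members that did not pass included 3 of at least 10 CPM. SNHG14, which runs antisense to the ubiquitin ligase gene UBE3A, had 100.1, 90.8 and 100.3 CPM in shfirefly and 96.5, 94.6 and 102 CPM in shSIRT1. The values interleaved (log2 change of 0.01 ± 0.05 SE, adjusted p = 0.9). Its direction depended on the scaling, at 0.13 with library totals alone (adjusted p = 0.033) and -0.11 with the offset for GC content and length (adjusted p = 0.057). Exons of other genes on the same strand share 5.6% of its exon bases. SNRPN, which overlaps SNHG14 on that strand, had 1.82 ± 0.492 and 1.28 ± 0.108 CPM (SD, n = 3). It did not pass (log2 change of -0.51 ± 0.24 SE, adjusted p = 0.076). ZFAS1, an antisense host of SNORD12, SNORD12B and SNORD12C, had 10.7, 10.3 and 11.2 CPM in shfirefly and 10.6, 11.4 and 10.7 CPM in shSIRT1 (log2 change of 0.02 ± 0.09 SE, adjusted p = 0.85). SNHG32, the host of SNORD48 and SNORD52, had 11.6 ± 0.762 and 11.1 ± 0.745 CPM (SD, n = 3; log2 change, with SE, of -0.05 ± 0.09, adjusted p of 0.65). SNHG8, the host of SNORA24, had 7.86 ± 0.417 and 7.89 ± 0.563 CPM (log2 change of 0.01 ± 0.10 SE, adjusted p = 0.97). The standard errors of ZFAS1, SNHG32 and SNHG8 leave room for changes of the size seen in SNHG6.

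SNHG10, SNHG20, SNHG30 and SNHG19 were tested at means of 2.66 to 2.85 CPM. Their log2 fold changes were 0.19 ± 0.19, 0.16 ± 0.17, 0.23 ± 0.18 and 0.23 ± 0.17 (SE), with adjusted p of 0.42, 0.46, 0.29 and 0.25. With 1 library left out in turn SNHG10 ranged from 0.00 (without shfirefly replicate 2) to 0.36, SNHG20 from 0.04 (without shSIRT1 replicate 2) to 0.25, SNHG30 from 0.13 to 0.38 (without shSIRT1 replicate 3) and SNHG19 from 0.18 to 0.32, and none passed. SNHG19, the host of SNORD60, had separate ranges all the same, at 2.48, 2.37 and 2.48 CPM in shfirefly and 3.06, 2.54 and 3.02 CPM in shSIRT1. Among the untested members SNHG9, the host of SNORA78, had 4, 7 and 4 counts in shfirefly and 8, 17 and 13 in shSIRT1. The ratio of counts over scaled library sizes was 2.57 (95% exact interval 1.38 to 5.03, counting error only). SNHG21 had 11 counts in shfirefly and 19 in shSIRT1, a ratio of 1.75 (0.792 to 4.07). SNHG22 had 20 and 13 counts (0.659, 0.301 to 1.39), and SNHG31 had 10 and 7 (0.71, 0.229 to 2.07). SNHG25 had 4 and 3 counts (0.76, 0.111 to 4.5). The 6 counts of SNHG26 in shSIRT1 all came from replicate 1, against 1 count in shfirefly (6.08, 0.738 to 279.8).

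Several hosts share a start region with a protein-coding gene, and pairs moved both alike and apart. SNHG18 starts 125 bases from SEMA5A, which encodes a transmembrane semaphorin and is read in the other direction. SEMA5A fell, with 60.7 ± 3.69 CPM in shfirefly and 33.5 ± 1.8 CPM in shSIRT1 (SD, n = 3; log2 change, with SE, of -0.86 ± 0.06, adjusted p of 5.8e-11), beside -1.06 for SNHG18. SNHG1 starts 224 bases from SLC3A2, the heavy chain of several amino acid transporters, again in the other direction. SLC3A2 fell, with 113 ± 6.03 CPM in shfirefly and 71.6 ± 1.46 CPM in shSIRT1 (SD, n = 3; log2 change, with SE, of -0.65 ± 0.05, adjusted p of 1.1e-10), while SNHG1 rose. The stretch between the RefSeq starts is shown for both pairs, in capitals with 20 bases on either side, on the strand of the host: chr5:9546055-9546220 (forward) and chr11:62855865-62856129 (reverse) of GRCh38.p14.
SNHG18 to SEMA5A: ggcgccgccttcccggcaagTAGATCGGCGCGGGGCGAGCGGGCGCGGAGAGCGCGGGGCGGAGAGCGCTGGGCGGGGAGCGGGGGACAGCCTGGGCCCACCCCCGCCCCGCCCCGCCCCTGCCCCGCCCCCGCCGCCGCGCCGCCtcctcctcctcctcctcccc
SNHG1 to SLC3A2: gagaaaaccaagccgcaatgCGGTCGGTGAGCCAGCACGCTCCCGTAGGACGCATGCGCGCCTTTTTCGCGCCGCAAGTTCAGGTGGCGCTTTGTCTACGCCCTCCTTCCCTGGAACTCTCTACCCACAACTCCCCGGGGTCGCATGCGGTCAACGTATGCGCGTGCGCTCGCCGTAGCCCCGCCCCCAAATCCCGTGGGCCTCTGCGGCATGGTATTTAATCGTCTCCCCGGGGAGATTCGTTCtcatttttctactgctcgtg
The SNHG18 stretch between the starts is 87.3% G and C and the SNHG1 stretch 64.4%. The longer promoter windows of SNHG18 and SNHG1 are 81.3% and 60%, beside a median of 58.7% over all promoter windows.

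Among the other neighbours SNHG3 and RCC1 rose together, and several pairs did not move alike. GAS5 overlaps ZBTB37, a zinc finger gene on the other strand, which rose from 16.5 ± 1.21 to 21 ± 0.412 CPM (log2 change of 0.35 ± 0.07 SE, adjusted p = 0.0004) while GAS5 fell. SNHG12 overlaps TRNAU1AP, a gene of selenoprotein synthesis, which fell, with 40.8 ± 2.28 CPM in shfirefly and 33.9 ± 0.317 CPM in shSIRT1 (log2 change of -0.27 ± 0.06 SE, adjusted p = 0.00035). SIL1, an exchange factor for the chaperone BiP on the strand opposite SNHG4, fell, with 28.1 ± 0.749 CPM in shfirefly and 24.4 ± 1.6 CPM in shSIRT1 (SD, n = 3; log2 change, with SE, of -0.20 ± 0.06, adjusted p of 0.012). TRAF7, a ubiquitin ligase gene that starts 340 bases from SNHG19, fell by 0.18 ± 0.04, and SEC14L1, which overlaps SNHG20 on the same strand, fell by 0.14 ± 0.04 (SE, log2 scale; adjusted p = 0.001 and 0.0051), beside hosts that did not pass. UBE3A, beside SNHG14, rose by 0.33 ± 0.04 (SE) on the log2 scale (adjusted p = 1.2e-06). ZNFX1, a helicase gene, overlaps ZFAS1 on the other strand and starts beside it. It had 82.3 ± 3.13 and 76.9 ± 3.36 CPM (SD, n = 3) and did not pass (adjusted p = 0.082). Exons on the other strand cover 26.1% of the exon bases of ZFAS1, and exons on the same strand cover 16.9%. ZFAS1 averaged only 10.7 CPM in shfirefly. For SNHG10, at 2.65 CPM in shfirefly, the share on the other strand is 20.1%. GLRX5, which overlaps SNHG10 there, had 31.7 ± 1.03 and 30.8 ± 1.52 CPM and did not pass (adjusted p = 0.61). LRRC75A, opposite SNHG29, and GAS5-AS1, opposite GAS5, did not pass (adjusted p = 0.18 and 0.19). Whether counting used the strand is not given in the sources used here, so reads of the overlapping pairs may be mixed.

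**Figure D3:**
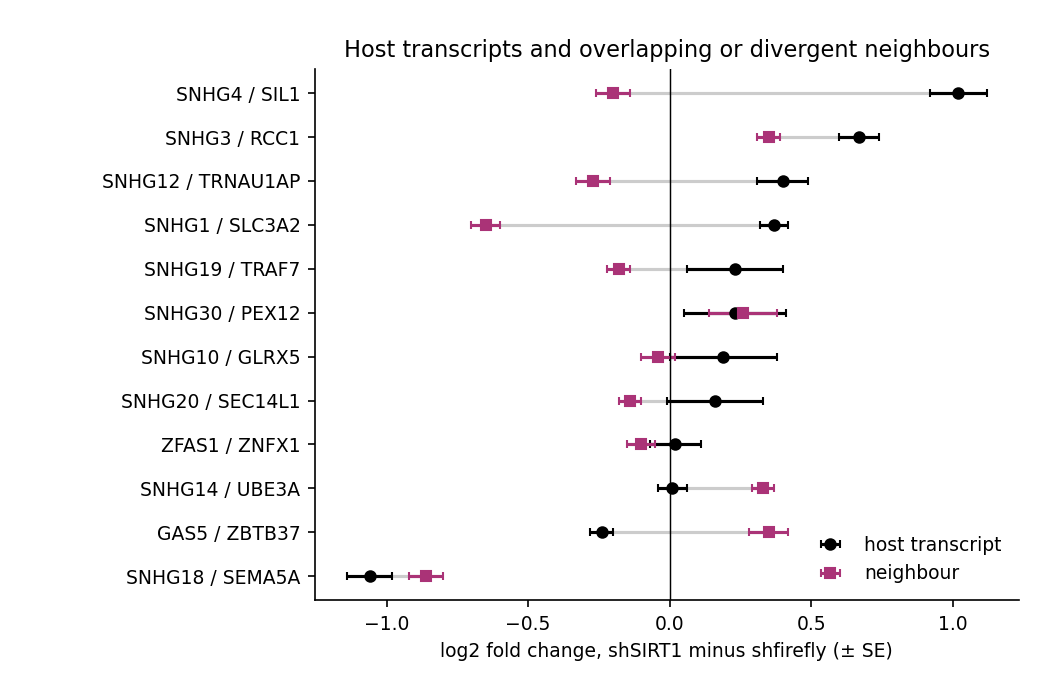
Log2 fold change (± SE, 3 libraries per group) of host transcripts (circles) and of tested neighbours of at least 5 CPM in either group that overlap them or start within 1 kb on the other strand (squares). SNHG18 and SEMA5A lie together on the left, and SNHG1 and SLC3A2 lie on opposite sides of 0.

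The snoRNA genes themselves were barely counted. The table has 459 rows named SNORD, SNORA or SCARNA, of which 144 had at least 1 read, and their counts summed to 333 to 505 per library. Of the 135 such rows inside members 11 had reads and 3 were tested. These rows were placed by GENCODE 29, which gives no snoRNA within GAS5. It also names no SNORD29 or SNORD31 within SNHG1 and no SNORD50A within SNHG5. Counts of the snoRNAs of GAS5 were therefore not examined. SNORA73B in SNHG3 had 5, 16 and 8 counts in shfirefly and 25, 33 and 29 in shSIRT1 (log2 fold change 1.59, adjusted p = 0.002). Its host rose as well, by 0.67. SNORD123 in SNHG18 had 9, 7 and 15 counts in shfirefly and 2, 4 and 1 in shSIRT1, a ratio of 0.229 (95% exact interval 0.0851 to 0.53, counting error only), and its host fell. SNORA13 had 5 counts in shfirefly and 16 in shSIRT1 (ratio 3.24, 1.14 to 11.3), whereas its host EPB41L4A-AS1 fell. SNORD104 in SNHG25 had 10 and 32 counts (ratio 3.24, 1.56 to 7.4), while SNHG25 had 4 and 3. SNORD99 in SNHG12 and SNORA71B in SNHG17 did not pass (adjusted p = 0.23 and 0.65). What RNA these reads came from was not tested.

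Genes that act with the hosts were counted from lists of known factors. These lists and those below were chosen with earlier results of these data known. Of 25 tested snoRNP core and assembly factors, the proteins that coat and mature snoRNAs, 19 rose, 2 fell and 4 did not pass. The share changed was 84%, against 52.8% of all genes tested and 67.3% of those of at least 10 CPM. Their median log2 fold change was 0.43 against 0.00 for all genes. NOP56, a core protein of box C/D particles, rose from 45.2 ± 2.25 to 83.7 ± 7.23 CPM (SD, n = 3; log2 change, with SE, of 0.89 ± 0.06, adjusted p of 4.1e-10). RPAP3, a subunit of the chaperone complex for these particles, rose by 1.07 ± 0.14 (SE) and PIH1D1, another subunit of it, fell by 0.34 ± 0.05 (adjusted p = 0.00066 and 3.7e-06). ZNHIT3, an assembly factor of box C/D particles, fell by 0.20 ± 0.06 (SE, log2 scale). Of 20 tested genes of ribosomal RNA modification and RNA polymerase I 12 rose and 1 fell (median 0.19). That is 65% changed, near the 67.3% of genes of at least 10 CPM. The counts were 16 and 1 with library totals alone and 8 and 2 with the offset for GC content and length. Nucleolin (NCL), itself a host of snoRNAs, rose from 587 ± 28 to 897 ± 47.9 CPM (SD, n = 3), and POLR1D, a subunit shared by polymerases I and III, fell by 0.52 ± 0.04 (SE) on the log2 scale.

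Over all protein-coding genes with an annotated snoRNA, 225 were tested, of which 101 rose, 69 fell and 55 did not pass (median 0.11). That is 75.6% changed, beside 59.8% of all tested protein-coding genes. Of all genes of at least 10 CPM 67.3% changed, 36.5% upwards and 30.8% downwards. Hand lists of ribosomal and other hosts gave different counts, and the difference between the lists was not tested. Of 25 ribosomal protein genes that host snoRNAs 24 fell, none rose and 1 did not pass (median -0.29). Among the 54 ribosomal protein genes with no listed snoRNA 44 fell, 1 rose and 9 did not pass (median -0.22). RPL13A, the host of SNORD32 to SNORD35 genes, fell by 0.46 ± 0.04 and RPL3 by 0.45 ± 0.04 (SE) on the log2 scale. The 1 ribosomal protein gene that rose was RPL36A, at 5.83 ± 1.08 and 7.8 ± 0.878 CPM (SD, n = 3). Of 33 other protein-coding hosts 23 rose, 6 fell and 4 did not pass, with a median of 0.27. HSPA8, the constitutive chaperone that hosts SNORD14 genes, rose from 1011 ± 17.5 to 1947 ± 107 CPM (SD, n = 3; log2 change, with SE, of 0.95 ± 0.04, adjusted p of 4.7e-14). TPT1, a TOP mRNA for a translationally controlled tumour protein, fell by 0.53 ± 0.04 and PPAN by 0.58 ± 0.09 (SE). With scaling by library totals alone the first list had 20 lower and 0 higher, the second 31 lower and 4 higher, and the third 4 lower and 26 higher. With the offset for GC content and length the third list had 16 higher and 6 lower.

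Nonsense-mediated decay and translation genes were read beside the hosts as the pathway that removes them and the pathway that acts on TOP RNAs. Of 22 tested decay factors 13 rose, 4 fell and 5 did not pass (median 0.28). The share changed was 77.3%, against 52.8% of all genes tested and 67.3% of those of at least 10 CPM. With library totals alone 17 rose and 1 fell (median 0.40). With the offset for GC content and length 12 rose and 5 fell (median 0.14). UPF3B rose by 0.78 ± 0.11 and UPF2 by 0.73 ± 0.14, and NBAS fell by 0.34 ± 0.06 and SMG6, the decay endonuclease, by 0.20 ± 0.05 (SE, log2 scale). Of 21 protein-coding transcripts known as targets of this decay, 9 rose, 10 fell and 2 did not pass (median -0.03). That is 90.5% changed, beside the same 52.8% and 67.3%. With the offset for GC content and length 6 rose and 11 fell (median -0.23). SRSF2 rose by 0.65 ± 0.04, and DDIT3, a stress transcription factor, fell by 1.58 ± 0.06 (SE). Of 19 tested regulators of TOP RNAs and translation 7 rose and 4 fell, so 57.9% changed, near the 52.8% of all genes tested. With library totals alone 12 rose and 4 fell. With the offset for GC content and length 5 rose and 5 fell. LARP4 rose by 0.87 ± 0.09, the cap-binding protein gene EIF4E rose by 0.62 ± 0.06, its inhibitor EIF4EBP1 fell by 0.68 ± 0.04 and PABPC1 fell by 0.39 ± 0.03 (SE). MYC, a transcription factor with ribosome biogenesis genes among its targets, fell, with 85.3 ± 3.29 CPM in shfirefly and 60.9 ± 3.29 CPM in shSIRT1 (SD, n = 3; adjusted p = 3e-08).

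**Figure D4:**
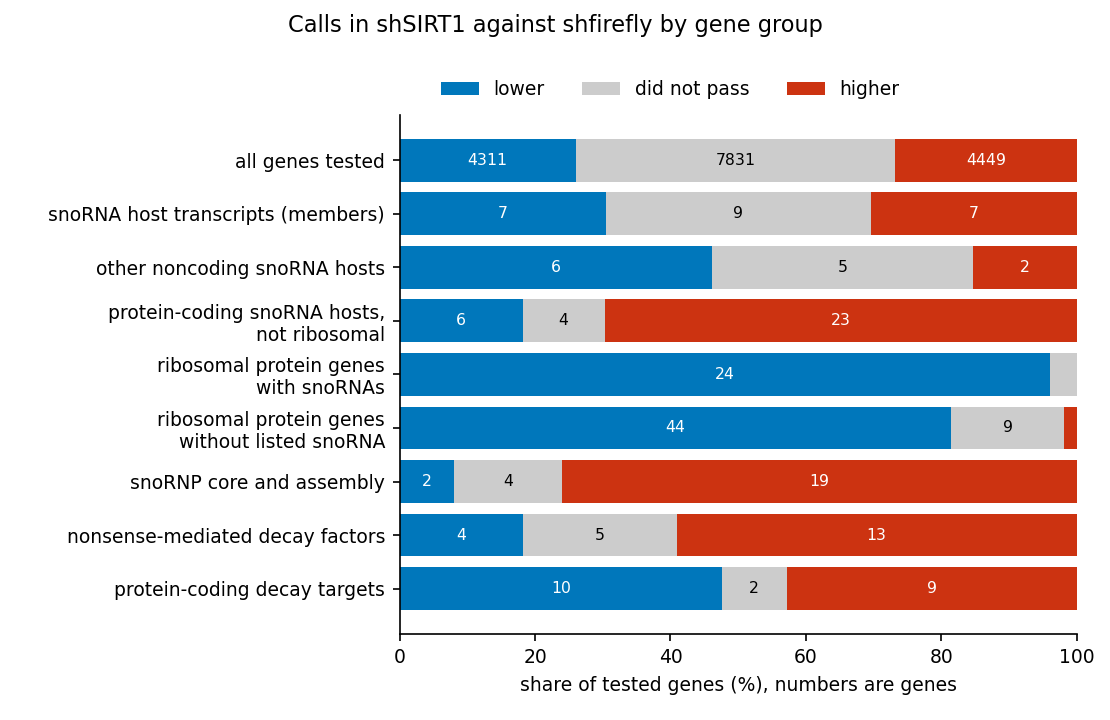
Share of tested genes called lower (blue), not passing (grey) and higher (red) in shSIRT1 by gene group, with the number of genes in each bar where it fits. The host transcripts split evenly, 7 lower and 7 higher, whereas ribosomal protein genes are mostly blue and snoRNP factors mostly red.

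Across 16 other settings the calls of 11 of the 14 members that changed were kept in each. The exceptions were SNHG6, SNHG15 and SNHG16, described above. No member that changed turned its direction. Scaling by library totals alone gave a family median of 0.14 with 8 higher and 6 lower, and the offset for GC content and length gave 0.11 with 6 higher and 7 lower.

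**Figure D5:**
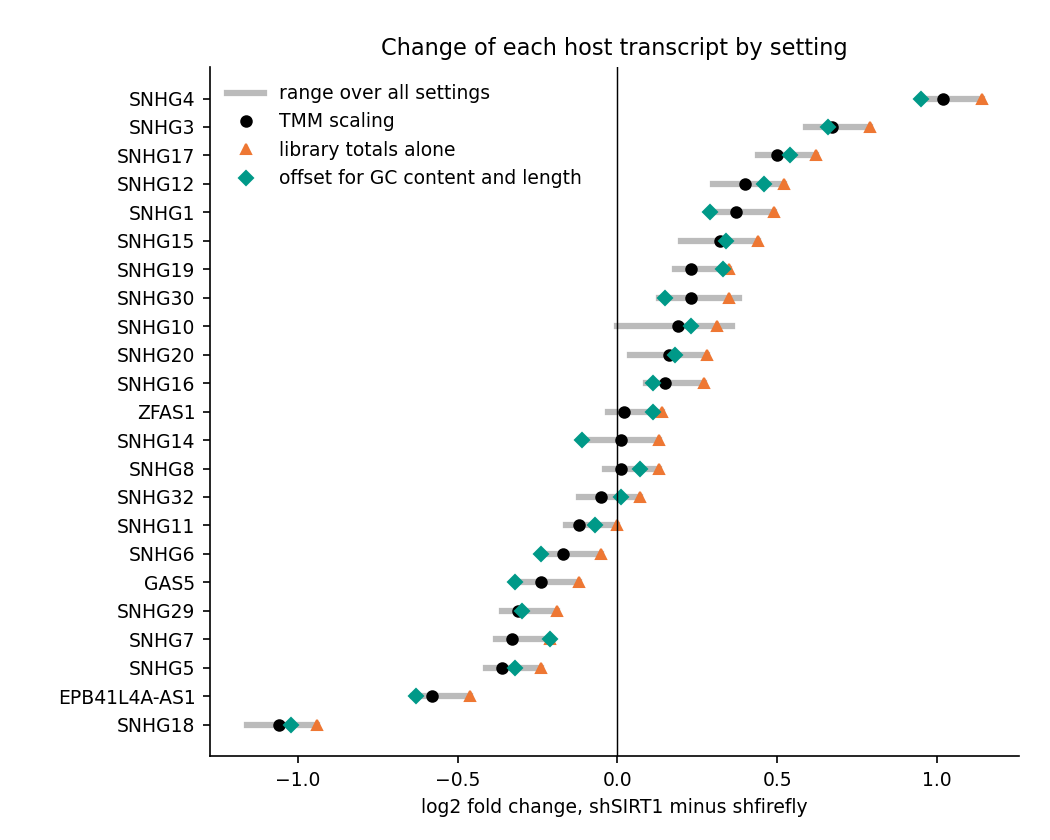
Log2 fold change of each tested host transcript with TMM scaling (circles), library totals alone (triangles) and the offset for GC content and length (diamonds), and the range over all settings run (grey bars). The bars of SNHG10, SNHG11, SNHG14, SNHG32, SNHG8 and ZFAS1 reach or cross 0, whereas none of the members called under TMM scaling has a bar that does.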

How the data were processed

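Libraries were made with a stranded poly(A) kit (TruSeq Stranded mRNA) per the labels' protocols. The authors used Trimmomatic, STAR, DESeq2 and build GRCh38 per the submitters' processing notes, with versions, counter, annotation and strand setting not given in the sources used here. The deposited read counts per gene are whole numbers. A further 6 columns of normalized values were not used. Columns were matched to samples by name.

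Counts were filtered with filterByExpr (16591 genes tested), scaled by TMM and tested with edgeR 4.0.16 (R 4.3.3) by the robust quasi-likelihood test on group alone, with Benjamini-Hochberg adjustment over all genes tested and a threshold of 0.05. The SE is the absolute log2 fold change over the square root of F. Replicates of a group differed by more than sampling noise (chi-square per gene of 2.82 to 6.1). The values of shfirefly replicate 3 against replicates 1 and 2 were 5.8 and 6.1, and replicates 1 and 2 differed by 2.82. Against the shSIRT1 libraries shfirefly replicate 3 had 57.4 to 66.7, and the other shfirefly libraries had 76.5 to 89.7. Without shfirefly replicate 3, 8869 genes were called, beside 8760 with all 6 libraries. Low counts are given as ratios with exact conditional 95% intervals. The fit was tested on simulated counts with few changed genes and a common dispersion. That setting differs from these data, so it gives no error rate for them. Alternatives were RLE, upper-quartile and no factors, DESeq2 1.42.0, other filters, a replicate block, no robust estimation, leaving out each library, and an offset for the GC content and length of transcripts (splines with 5 degrees of freedom; 99.1% of tested genes had both).

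Coordinates and exons came from GENCODE 29 on GRCh38 by Ensembl identifier (all 31 members matched), snoRNA catalogue and starts from RefSeq (GRCh38.p14). Every member was described. Named genes of lists were up to 2 rises and 2 falls with at least 5 CPM. More were named for the noncoding hosts outside the family, and cell type markers were named at any level. Members and lists were chosen with earlier results of these data known.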

Additional observations from a re-analysis of the deposited data

How the results depend on the processing

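The number of genes called was 7569 to 9246 over all settings, and the members called higher numbered 6 to 8 and lower 6 to 8. Leaving out 1 library at a time gave 6 to 7 in each direction. Replicate numbers showed no sign of pairing the samples. Correlations of deviations were -0.01, -0.067 and 0.132 for same-numbered libraries and -0.154 to 0.171 for differently numbered ones. With 3 libraries per group these values cannot decide whether samples were paired. With a replicate block 9176 genes and the same counts of members, 7 and 7, were called. Signs turned only among members that did not pass. SNHG14 was -0.00 with a filter of 1 CPM in 3 libraries, -0.04 with upper-quartile factors, -0.11 with the offset for GC content and length and -0.11 (adjusted p = 0.028) with that offset and the replicate block, and -0.04 to 0.03 with 1 library left out. SNHG8 was -0.00 with that filter, -0.04 with upper-quartile factors and -0.04 to 0.06 with 1 library left out. ZFAS1 was -0.03 with upper-quartile factors and -0.01 to 0.04 with 1 library left out. SNHG32 was 0.07 with library totals alone, 0.01 with the offset and 0.00 with the offset and block, and SNHG11 was 0.00 with library totals alone. The causes were not tested. Depth limits the members below 3 CPM, whose standard errors were 0.17 to 0.19.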

Other observations

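GENCODE 29 gives 46 noncoding genes outside the named family that hold an annotated snoRNA or SCARNA gene on the same strand. Of these 13 were tested, 2 rose, 6 fell and 5 did not pass (61.5% changed, median log2 fold change -0.26). Over all tested long noncoding RNA genes outside the family 27.3% changed and the median was -0.12. UBA6-AS1 fell, with 25.7 ± 1.69 CPM in shfirefly and 12 ± 0.567 CPM in shSIRT1 (SD, n = 3; log2 change, with SE, of -1.09 ± 0.08, adjusted p of 1.1e-10, edgeR). MIR31HG, the host transcript of a microRNA, fell, with 15.1 ± 0.091 CPM in shfirefly and 11.8 ± 0.505 CPM in shSIRT1 (adjusted p = 0.0007), and GPRC5D-AS1 fell, with 7.23 ± 1.18 CPM in shfirefly and 5.22 ± 0.543 CPM in shSIRT1 (adjusted p = 0.0042). TMEM161B-AS1 rose (adjusted p = 0.026, edgeR), with 5.35 ± 0.425 CPM in shfirefly and 6.84 ± 1.09 CPM in shSIRT1.

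Among 29 tested well-known long noncoding RNAs 7 rose, 6 fell and 16 did not pass, so 44.8% changed against 52.8% of all genes tested. With scaling by library totals alone 13 rose and 3 fell, and with the offset for GC content and length 7 rose and 10 fell. NEAT1, the scaffold of nuclear paraspeckles, fell, with 238 ± 22.5 CPM in shfirefly and 177 ± 11.5 CPM in shSIRT1, and DLEU2 rose from 9.26 ± 1.94 to 14.2 ± 1.6 CPM (SD, n = 3), with adjusted p of 0.0022 and 0.0038 in edgeR.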
